A study of Mus musculus with 16 samples.

Results

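The genes followed here are 7 genes of insulin-like growth factor (IGF), FoxO and mTOR control in skeletal muscle, namely Igf1, Igfbp4, Igfbp5, Foxo1, Eif4ebp1, Ddit4l and Flcn. They are read by 9 of the 46120 probes on the array, and 8 of these 9 probes passed the filter on dim signal that left 7596 probes in all. Igf1, Igfbp4, Igfbp5, Foxo1 and Eif4ebp1 were found by the NCBI gene number that stands in the probe ID. Ddit4l and Flcn carry no such number, so each was taken as the single kept probe whose fold changes at both times match the pair printed for that gene in the study. The formoterol changes of Ddit4l and Flcn therefore chose these probes, and are given below as a description with no test. The best probe differed from the printed folds by at most 0.00309 for Ddit4l and 0.00437 for Flcn, while the next nearest probe differed by 0.10062 and 0.16814.

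Gene expression was profiled in the tibialis anterior of 16 male C57BL/10 ScSn mice, 6 to 7 weeks old, on Illumina mouse bead arrays, with 1 mouse per array. Each mouse received a single intraperitoneal injection. The agent was either the β2-adrenoceptor agonist formoterol at 100 µg/kg in saline, or saline alone, and the muscle was taken 1 h or 4 h later, which gives 4 groups of 4 mice. Every mouse, the controls included, was therefore injected, and the 1 h and 4 h comparisons have separate saline controls. The arrays lay on 3 slides, with both treatments on each slide that a time point used. Slide 1 held only 4 h mice, slide 3 only 1 h mice, and slide 2 mice of both times. Time is therefore largely confounded with slide. The median raw intensity of the kept probes ran from 392.7 to 746.1 per array, and stood 2.33 to 3.74 times above that of probes without detectable signal. All signals below were scaled to a common array median of 523.5 intensity units, and values under a floor of 257.5 were set to that floor before log2 was taken. Of the muscle fibre markers, 3 were measured (Myh1, Actn3 and Casq1), their summed signal lay between 25200 and 34430 in all 16 mice, and limma called none in any comparison. At an unadjusted p under 0.05 there were 2 at 1 h, with a median log2 change of -0.30 over the 3, and 1 at 4 h, with a median of -0.15, and the methods' t-test called 1 at 4 h. Whole muscle was profiled, so fewer cells of a type and less RNA per cell cannot be told apart.

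Insulin-like growth factor 1 binds its receptor on the muscle fibre and activates phosphatidylinositol 3-kinase and the kinase Akt. Akt holds FoxO transcription factors out of the nucleus, where they otherwise switch on genes of protein breakdown, and it also relieves inhibition of the kinase complex mTORC1, which promotes cap-dependent translation and growth. IGF binding proteins control how much ligand reaches the receptor, and several proteins, including those encoded by Ddit4l and Flcn, act on mTORC1 from other inputs such as stress and amino acids.

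At 1 h, Eif4ebp1 was the member that differed between formoterol and saline by limma (adjusted p under 0.05), and it was lower. It was 1 of 5 members tested, where 2.78% of all 7596 kept probes were called, and 0.908% were called lower. At 4 h, Foxo1 was higher and Igfbp4 and Igfbp5 were lower, so that 3 of the 5 tested members were called, against 15.9% of all probes (8.81% higher and 7.07% lower). Foxo1 passed the filter on dim signal only through the formoterol arrays at 4 h, so its call is not read against these shares. Igf1 was not called at either time. Ddit4l and Flcn are described without a test.

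**Figure D1:**
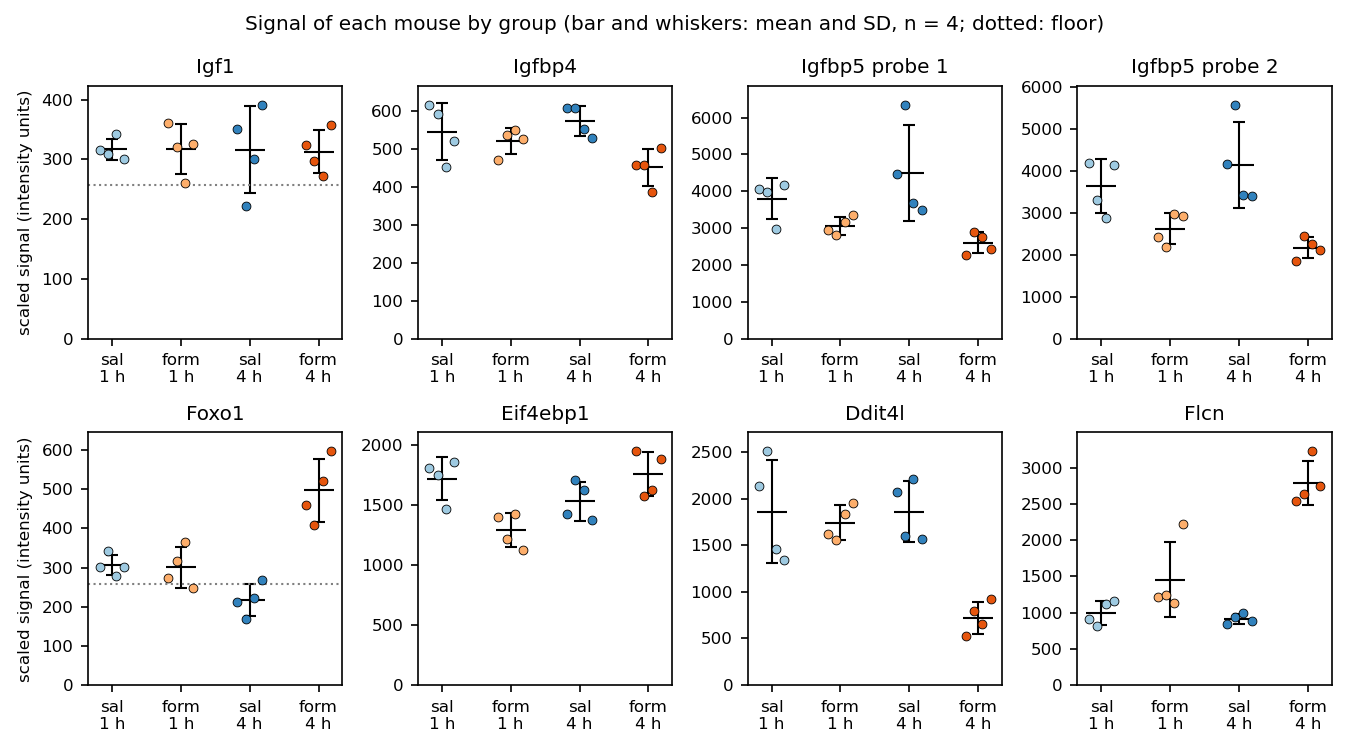
Scaled signal in intensity units (vertical axes, from 0) of each mouse (points) for the 8 kept probes in the 4 groups (sal, saline; form, formoterol), with the mean and SD of 4 mice as bar and whiskers and the floor of 257.5 as a dotted line where it lies near the data. Foxo1 stood above the 12 other mice in all 4 mice given formoterol 4 h earlier, as did 3.13% of all probes. It passed the filter on dim signal only through that group, so nothing is read from this share. Flcn also stood above and Ddit4l below the 12 other mice, but these 4 h values chose their probes.

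Igf1 encodes the ligand. Its signal was low, at percentile 6.1 of the kept probes, and it was detected on 13 of the 16 arrays. It read 315, 308.3, 342 and 300.5 in the saline mice at 1 h and 361.5, 321.2, 260.7 and 326 in the formoterol mice. The 4 h values were 350.6, 222.4, 300.8 and 391.3 after saline and 323.6, 297.3, 272.7 and 357.8 after formoterol. The groups overlapped at both times, and their means lay between 312.8 and 317.3. The limma log2 change was 0.00 (SE 0.12, 95% interval -0.26 to 0.25, adjusted p = 0.996) at 1 h and -0.04 (SE 0.12, interval -0.30 to 0.21, adjusted p = 0.833) at 4 h. These intervals leave room for small changes of either sign, and a change in the ligand made by other tissues is outside these data.

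Igfbp4 encodes an IGF binding protein that mostly restrains IGF action. At 1 h it read 616.7, 592.5, 451.8 and 521.2 after saline and 472, 536, 548.7 and 526 after formoterol, and the formoterol values lay inside the saline range. It read, at 4 h, 606.9, 608.2, 552.2 and 527.6 after saline and 458, 458.7, 386.3 and 503.4 after formoterol. All 4 formoterol mice were then below all 4 saline mice, which held for 8.85% of all probes. The log2 change was -0.06 (SE 0.10, adjusted p = 0.868) at 1 h and -0.35 (SE 0.10, 95% interval -0.56 to -0.14, adjusted p = 0.0219) at 4 h by limma. The 4 h call was lost without saline 4 h replicate 1 (adjusted p = 0.066), saline 4 h replicate 2 (0.0584) or formoterol 4 h replicate 3 (0.0846). It was also uneven between slides, at -0.44 within slide 1, which held 3 mice of each group, and -0.07 within slide 2, which held 1 of each.

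Igfbp5 encodes the IGF binding protein that is expressed in developing muscle and binds extracellular matrix. It was read by 2 kept probes, both bright, at percentiles 93.9 (probe 1) and 93.0 (probe 2) of the kept probes. At 1 h, probe 1 read 4065.6, 3976.2, 2973.7 and 4179.4 after saline and 2950.4, 2805.7, 3151.9 and 3368.7 after formoterol. Saline replicates 1, 2 and 4 were above the formoterol mice, and replicate 3 lay among them. At 4 h, probe 1 read 4478.6, 6351.3, 3676.6 and 3478.3 after saline and 2280.9, 2894.1, 2770 and 2435.5 after formoterol. Probe 2 read 4164.9, 5576.8, 3419.2 and 3396.9 after saline and 1859.3, 2449.5, 2247.7 and 2103.2 after formoterol at 4 h. On both probes no formoterol mouse reached the lowest saline mouse at 4 h, as was the case for 8.85% of all probes. Saline 4 h replicate 2 was the highest of all 16 mice on both. Igfbp5 fell at 4 h by limma, with a log2 change of -0.76 (SE 0.15, 95% interval -1.08 to -0.44) on probe 1 and -0.91 (SE 0.15, interval -1.24 to -0.59) on probe 2, or 1.69 and 1.88 times lower (adjusted p = 0.00186 and 4.34e-04). Without any 1 mouse the adjusted p of probe 1 stayed between 0.000699 and 0.00843 and that of probe 2 between 0.000277 and 0.00223. By the methods' t-test, run on the same scaled values and with no spread shared between probes, neither probe was called (adjusted p = 0.151 and 0.0808).

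At 1 h the same probes stood at -0.30 (SE 0.15, adjusted p = 0.398) and -0.46 (SE 0.15, adjusted p = 0.147), which did not pass the threshold. The change in Igfbp5 from the 1 h to the 4 h response was -0.46 (SE 0.22, adjusted p = 0.367) on probe 1 and -0.45 (SE 0.22, adjusted p = 0.398) on probe 2. The 4 h fall was therefore not shown to be larger than the difference at 1 h. The 2 probes moved together over the arrays (r = 0.97 over 16 arrays, and 0.92 after group means were removed).

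The promoter window of Igfbp5 is shown as the regulatory sequence of the binding protein gene that fell most. It covers 250 bases before to 50 bases after the RefSeq start site, lies at chr1:72874816-72875115 on the minus strand of GRCm38.p6, and is written 5′ to 3′ on the gene's strand with no letters in capitals because none of the marked motifs occurs in it.
Igfbp5: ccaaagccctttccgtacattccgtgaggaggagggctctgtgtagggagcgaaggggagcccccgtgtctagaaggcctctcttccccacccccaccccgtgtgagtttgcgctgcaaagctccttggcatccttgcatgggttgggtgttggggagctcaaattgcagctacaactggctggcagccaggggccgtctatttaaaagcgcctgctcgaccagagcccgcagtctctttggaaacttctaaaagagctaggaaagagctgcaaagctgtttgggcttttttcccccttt

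Markers of fibroblasts, a cell type in muscle other than the fibre, had a lower summed signal after formoterol at both times. The binding protein genes were called lower at 4 h alone, but Igfbp5 also stood lower at 1 h without a call, at -0.30 on probe 1 and -0.46 on probe 2. Of the 10 markers listed, 4 were measured, and their summed signal was 20600 to 25210 in saline and 14190 to 18200 in formoterol mice at 1 h. At 4 h the sum was 21540 to 31780 after saline and 17050 to 19270 after formoterol, so that the groups did not overlap at either time. The collagen genes Col1a1 (log2 -0.65, SE 0.17, adjusted p = 0.0163), Col1a2 (-1.23, SE 0.26, adjusted p = 0.00336) and Col3a1 (-1.17, SE 0.33, adjusted p = 0.0209) were lower at 4 h by limma. Without formoterol 4 h replicate 3 Col1a1 stood at adjusted p = 0.0639 and Col3a1 at 0.0529, and the call of Col3a1 was also lost without formoterol 4 h replicate 2 (0.0516) or replicate 4 (0.0724). Decorin (Dcn), the brightest marker, stood at 0.06 (SE 0.06, adjusted p = 0.525) at 4 h. At 1 h, when neither binding protein gene was called, 2 of the 4 markers were called lower, Col1a1 (-0.87, SE 0.17, adjusted p = 0.00758) and Dcn (-0.26, SE 0.06, adjusted p = 0.0305, and -0.39 with adjusted p = 0.018 on its other probe). The 1 h call of the brighter Dcn probe was lost without saline 1 h replicates 2 (0.0869), 3 (0.0525) or 4 (0.0872) or formoterol 1 h replicates 1 (0.0685) or 2 (0.121). The part of these cells in the Igfbp4 and Igfbp5 results was not tested.

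**Figure D2:**
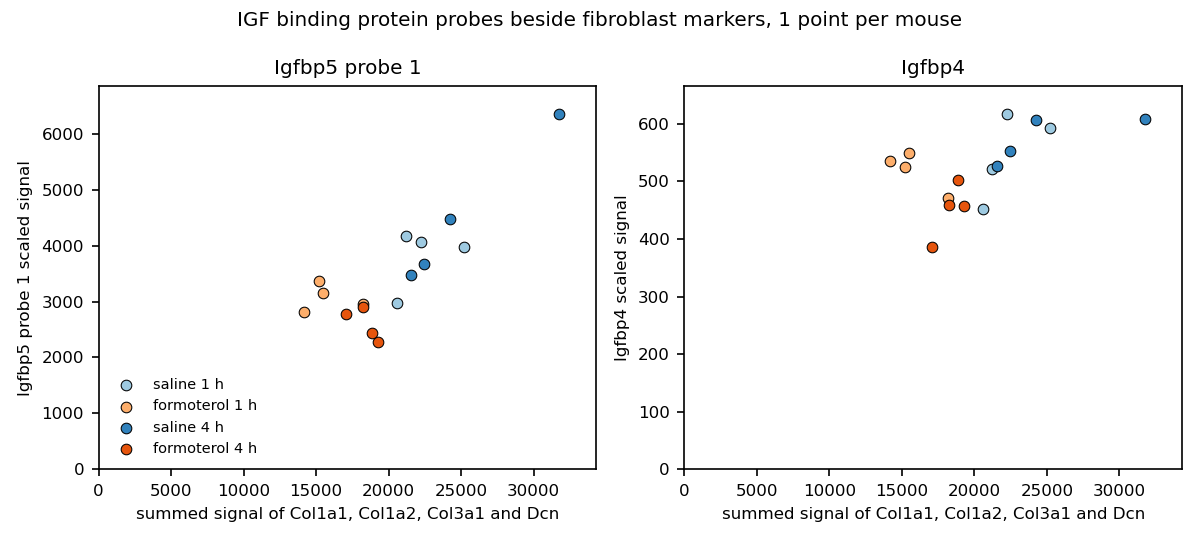
Scaled signal of Igfbp5 probe 1 (left) and Igfbp4 (right) against the summed signal of 4 fibroblast markers, both axes from 0 in intensity units, with 1 point per mouse coloured by group. At both times the formoterol mice lay to the left of the saline mice. At 4 h they also lay below them for both genes, as was the case for 8.85% of all probes.

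Foxo1 encodes a FoxO transcription factor that turns on genes of protein breakdown and fuel switching in muscle. At 1 h it read 302.4, 342.5, 279.7 and 300.9 after saline and 273.4, 315.6, 364.9 and 247.6 after formoterol, which overlap. At 4 h it read 211.2, 167.8, 222.4 and 268.7 after saline and 459.8, 408.8, 522 and 597.3 after formoterol. The 4 formoterol mice at 4 h were above the 12 other mice, whose highest value was 364.9, as was the case for 3.13% of all probes. None of the 4 saline arrays at 4 h gave a detectable Foxo1 signal, against 3 of 4 and 2 of 4 arrays at 1 h and all 4 after formoterol at 4 h. The fold at 4 h is therefore uncertain. With saline values below the lowest signal detected on their array raised to it, the group means differed 1.78-fold. This value carries no sampling error, and the interval below reaches lower. The limma log2 change with values at the floor was 0.92 (SE 0.11, 95% interval 0.68 to 1.16, adjusted p = 1.45e-05). The size depended on how low values were treated, from 0.73 with a floor at percentile 5 (adjusted p = 4.43e-05) to 1.63 with normal-exponential background correction and quantile normalization together (adjusted p = 4.04e-06), and it was 1.09 with quantile normalization alone (adjusted p = 5.20e-06). Foxo1 had a detection score of 1 on 5 arrays, among them all 4 after formoterol at 4 h. It therefore passed the filter on dim probes only through that group. Its passing is not a separate finding, and nothing is read from its place beside the shares of all probes. Without that filter Foxo1 stood at 1.20 (adjusted p = 1.80e-07). By the methods' t-test, run here on the floored values, it was not called (adjusted p = 0.0625).

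At 1 h the log2 change in Foxo1 was -0.03 (SE 0.11, 95% interval -0.26 to 0.21, adjusted p = 0.963). The difference between the 4 h and 1 h responses was itself called (0.94, SE 0.16, adjusted p = 0.00169), a call made for 3.52% of all probes, and for 2.3% in this direction. Since Foxo1 passed the filter on dim probes only through the formoterol arrays at 4 h, nothing is read from these shares. Within slide 1 the 4 h change was 0.84, and within slide 2, with 1 mouse in each group, it was 1.15. Leaving out any 1 mouse gave 0.83 to 1.01. The saline mice at 4 h were lower than those at 1 h without overlap (log2 -0.23, SE 0.11), but this was not called (adjusted p = 0.37), and 3.21% of all probes were lower without overlap in that comparison. With slide as a fixed block this saline change was -0.09. The Foxo1 window at chr3:52268087-52268386, on the plus strand of GRCm38.p6, is shown as the promoter of the transcription factor gene that rose. Capitals mark CCAAT, here read on the other strand as ATTGG, which occurs at positions -162, -55 and -23 counted from the start site and in 37.4% of all 32851 RefSeq promoter windows.
Foxo1: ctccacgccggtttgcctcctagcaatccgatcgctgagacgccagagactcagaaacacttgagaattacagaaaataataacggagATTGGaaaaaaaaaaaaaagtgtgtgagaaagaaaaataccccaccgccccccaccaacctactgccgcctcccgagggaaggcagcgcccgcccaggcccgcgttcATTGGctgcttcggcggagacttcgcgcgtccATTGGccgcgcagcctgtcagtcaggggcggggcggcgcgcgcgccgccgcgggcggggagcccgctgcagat

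Eif4ebp1 encodes a repressor of cap-dependent translation that binds the cap-binding factor eIF4E and is released when mTORC1 phosphorylates it. At 1 h its kept probe read 1805.8, 1744.8, 1460.2 and 1853.9 after saline and 1397.3, 1213.3, 1419.2 and 1124.1 after formoterol. All formoterol mice were below all saline mice, as was the case for 4.05% of all probes, but the gap between 1419.2 and 1460.2 was narrow. At 4 h it read 1418.9, 1702.9, 1618.5 and 1368.7 after saline and 1944.8, 1572.9, 1621.7 and 1878 after formoterol, and the groups overlapped.

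The log2 change in Eif4ebp1 was -0.41 (SE 0.10, 95% interval -0.63 to -0.20, adjusted p = 0.0347) at 1 h and 0.20 (SE 0.10, interval -0.02 to 0.42, adjusted p = 0.198) at 4 h by limma. The difference of the responses was called (0.61, SE 0.15, adjusted p = 0.0224), so the 2 times did differ. The 1 h call was close to the threshold. It was lost without saline 1 h replicate 1 (adjusted p = 0.116), replicate 2 (0.102) or replicate 4 (0.0992), and without formoterol 1 h replicate 2 (0.117) or replicate 4 (0.112). The call of the difference was lost without formoterol 4 h replicate 4 (0.0535), formoterol 1 h replicate 2 (0.0565), saline 4 h replicate 1 (0.0524) or saline 1 h replicate 4 (0.0508). The direction held within both slides of the 1 h mice, at -0.45 and -0.38. The other Eif4ebp1 probe was dim, at 125.8 to 264.6 with no array detected, and gives no reading of the gene.

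Ddit4l encodes a stress-responsive inhibitor of mTORC1 that is abundant in skeletal muscle. At 1 h it read 2134.8, 2507.4, 1461.4 and 1339.1 after saline and 1618.2, 1559.8, 1834.5 and 1957.1 after formoterol. The saline mice straddled the formoterol mice, with 2 above and 2 below them. This split followed the slide, since the change was -0.54 on the log2 scale within slide 2 and 0.44 within slide 3, against -0.05 (SE 0.19) over both. The values at 4 h were 2070.3, 1598.2, 2210.7 and 1561.7 after saline and 522.4, 795.1, 653.2 and 917.4 after formoterol. Each formoterol mouse at 4 h was below the 12 other mice, whose lowest value was 1339.1, and the mean signal was 722 ± 171 (SD, n = 4) against 1860 ± 329. The log2 change at 4 h was -1.38 (SE 0.19, 95% interval -1.78 to -0.98), and the change from the 1 h to the 4 h response was -1.33 (SE 0.27). As the 4 h value chose the probe, nothing is read from the 1.43% of probes that were below the 12 other mice in the same way. Within slide 1 the 4 h change was -1.58, and it was -0.77 within slide 2, which held 1 mouse of each group.

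The Ddit4l window at chr3:137623422-137623721, on the plus strand of GRCm38.p6, is shown as the promoter of a member on the mTORC1 side. Capitals mark TATAAA, at position 36 after the start site, which occurs on either strand in 13.6% of all windows.
Ddit4l: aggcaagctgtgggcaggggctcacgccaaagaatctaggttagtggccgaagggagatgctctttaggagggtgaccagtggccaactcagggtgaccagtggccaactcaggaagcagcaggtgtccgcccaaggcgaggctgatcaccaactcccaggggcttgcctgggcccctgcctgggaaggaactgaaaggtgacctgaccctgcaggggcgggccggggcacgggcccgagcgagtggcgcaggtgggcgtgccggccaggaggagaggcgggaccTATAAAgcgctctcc

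Flcn encodes folliculin, a partner of the Rag GTPases that link amino acid supply to mTORC1 at the lysosome. At 1 h it read 914.3, 809.7, 1119.2 and 1157.3 after saline and 1217.1, 1250.8, 1135.9 and 2227.4 after formoterol. Replicate 4 after formoterol stood alone, and the other 3 formoterol mice lay close to the top of the saline range. By 4 h it read 841, 933.3, 996.1 and 879.8 after saline and 2546.4, 2640.9, 3231.7 and 2754.8 after formoterol. The formoterol mice at 4 h were above the 12 other mice, with a mean of 2793 ± 304 (SD, n = 4) against 912.5 ± 67.3 in their saline controls. The log2 change was 0.50 (SE 0.17, 95% interval 0.15 to 0.85) at 1 h and 1.61 (SE 0.17, interval 1.26 to 1.96) at 4 h, and the response grew by 1.11 (SE 0.23) between the times. Without formoterol replicate 4 the 1 h change was 0.28, the lowest value when any 1 mouse was left out, while the 4 h change stayed between 1.54 and 1.65. Both slides gave like values at 4 h, 1.60 and 1.65. None of these formoterol changes was tested, because the rule used them. Nothing is read from the 3.13% of all probes that were above the 12 other mice in the same way.

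The Flcn window at chr11:59809990-59810289, on the minus strand of GRCm38.p6, is shown because it holds the cAMP response element, the recognition sequence of CREB, a factor that acts downstream of β2-adrenoceptors and cAMP. Capitals mark this element, TGACGTCA, which starts at position -49 and reads the same on both strands. It occurs in 588 of 32851 promoter windows (1.79%) and in 1 of the 6 member windows, and its core TGACG, in either orientation and counted also where it lies inside the full element, occurs in 20.8% of all windows and in no member window other than that of Flcn.
Flcn: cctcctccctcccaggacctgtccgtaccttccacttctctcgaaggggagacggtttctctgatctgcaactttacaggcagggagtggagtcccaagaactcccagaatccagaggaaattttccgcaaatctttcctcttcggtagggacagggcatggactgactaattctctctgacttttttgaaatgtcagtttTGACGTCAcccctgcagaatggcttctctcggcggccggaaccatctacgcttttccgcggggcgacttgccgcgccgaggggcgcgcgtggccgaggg
The match describes the sequence and not a bound site. Of the 5 other motifs searched on both strands, AGGTCA (in 16.3% of all windows) was in the Ddit4l and Igf1 windows, CCAAT in those of Foxo1 and Igf1, and TATAAA in those of Ddit4l and Igfbp4. CACGTG (7.15%) and the FoxO element GTAAACA (3.65%) were in none of the 6. Eif4ebp1 was not matched in the promoter table.

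**Figure D3:**
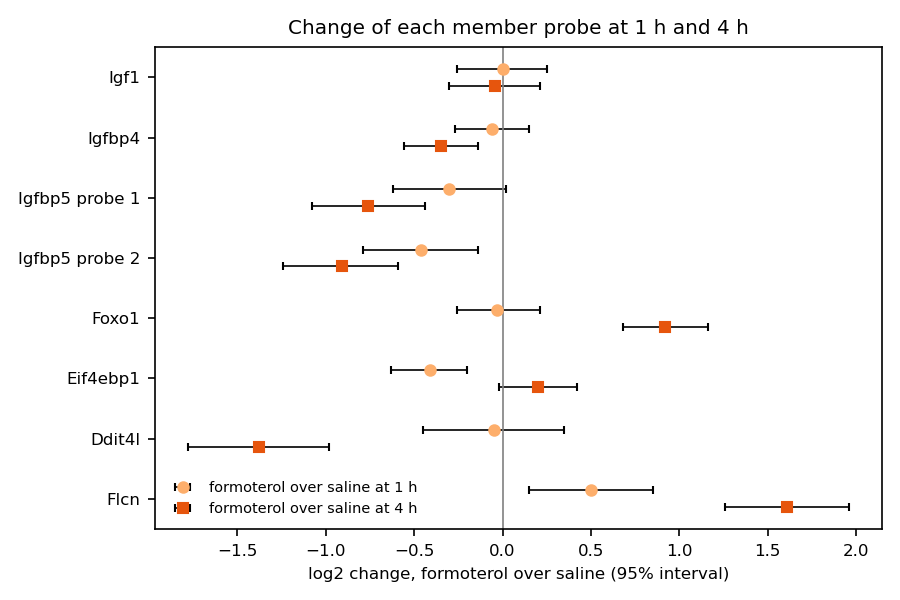
The log2 change of formoterol over saline (horizontal axis) for each member probe at 1 h (circles) and 4 h (squares), with the 95% interval of the limma fit as whiskers. The intervals of Foxo1, Igfbp4 and both Igfbp5 probes at 4 h leave out 0, as do those of Eif4ebp1 and Igfbp5 probe 2 at 1 h. Those of Igf1 include 0 at both times. The intervals are not adjusted for the number of probes. The intervals of Ddit4l and Flcn are drawn as description and test nothing, since these values chose the probes.

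With time in the saline mice alone, no member was called between 1 h and 4 h by limma, none had an unadjusted p under 0.05, and 0.145% of all probes were called. For Ddit4l and Flcn, whose probes were not chosen by this comparison, the log2 change in saline was 0.03 (SE 0.19, adjusted p = 0.959) and -0.12 (SE 0.17, adjusted p = 0.77). This comparison is largely confounded with slide, so time and slide cannot be fully told apart in it. The difference between the 1 h and 4 h responses shares the saline arrays with it. Saline Igfbp5 stood 0.21 (SE 0.15, adjusted p = 0.537) higher at 4 h on probe 1 and 0.18 (SE 0.15, adjusted p = 0.618) on probe 2.

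Red blood cell markers also moved at 4 h, when Foxo1 was higher. Of 8 listed, 3 were measured, and their summed signal was 6085 to 19960 after saline and 25070 to 42900 after formoterol at 4 h, without overlap, against 14230 to 38940 and 22590 to 40500 at 1 h. At 4 h 2 of the 3 were called higher by limma and 1 was not called. The log2 change of the α-globin gene Hba-a1 was 1.82 (SE 0.32, adjusted p = 6.47e-04). That of Hbb-b2 was 0.61, a call lost in 7 of the fits without 1 mouse. The leukocyte gene S100a9, 1 of 5 leukocyte markers measured, stood at 0.76 (SE 0.18, adjusted p = 0.00774) at 4 h. The median of the 5 leukocyte markers was -0.07 at 4 h, and their summed signal overlapped, at 1955 to 2538 after saline and 2298 to 2577 after formoterol. The endothelial markers (3 measured) and the smooth muscle marker (1 measured) were not called, and no adipocyte marker was measured. The part of blood in the member results was not tested.

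The lists of other pathway genes count each gene by its brightest kept probe and were written with earlier results of these data known. Of 21 IGF ligands, receptors and binding proteins, 4 were measured. Of these Igfbp4 and Igfbp5, both members, fell at 4 h, where 7.07% of all probes were called lower. The other binding protein measured, Igfbp6, stood at 0.18 (SE 0.13, adjusted p = 0.354) at 4 h. The median log2 change of the 4 genes was -0.09 at 1 h and -0.20 at 4 h, against 0.00 and 0.02 over all probes.

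Of 32 genes of insulin receptor, PI3K and Akt signalling, 7 were measured and 1 was called, at 1 h, where 2.78% of all probes were. Pik3r1, the regulatory subunit of PI3K, stood at -0.44 (SE 0.11, adjusted p = 0.0329) at 1 h and was called lower, with overlapping groups. This call was lost without any 1 of 6 mice, namely saline 1 h replicates 1 (adjusted p = 0.0746), 2 (0.14) and 4 (0.0769) and formoterol 1 h replicates 1 (0.101), 3 (0.0726) and 4 (0.0984). At 4 h Pik3r1 stood at -0.02 (adjusted p = 0.924), and the kinase gene Akt2 stood at 0.04 at 1 h (adjusted p = 0.915) and 0.10 at 4 h (adjusted p = 0.504).

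Of 21 FoxO factors and direct regulators, 4 were measured, and Foxo1, itself a member, was the 1 called at 4 h, where 15.9% of all probes were. Foxo1 counts as measured only through the formoterol arrays at 4 h, so nothing is read from this count beside that share. Sgk1, a kinase that phosphorylates FoxO factors, stood at 0.22 (SE 0.14, adjusted p = 0.545) at 1 h and 0.18 (SE 0.14, adjusted p = 0.428) at 4 h. Of 32 FoxO target genes of muscle, 8 were measured, with 1 higher and 1 lower at 1 h and 3 higher and 0 lower at 4 h, against 2.78% of all probes called at 1 h and 8.81% called higher at 4 h. Cdkn1a, which encodes the cell cycle inhibitor p21, rose by 1.25 on the log2 scale at 1 h (SE 0.14, adjusted p = 1.21e-05) and by 1.61 at 4 h (SE 0.14, adjusted p = 1.40e-07). Lpl, a lipase that frees fatty acids from circulating lipid, rose at 4 h (0.39, SE 0.11, adjusted p = 0.0225), as did the F-box gene Fbxo31 (0.29, SE 0.08, adjusted p = 0.0241).

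The Lpl call was lost without formoterol 4 h replicate 4 (adjusted p = 0.0805) or saline 4 h replicates 1 (0.0646) or 2 (0.077). The Fbxo31 call was lost without formoterol 4 h replicates 3 (0.0813) or 4 (0.0882) or saline 4 h replicate 2 (0.0788). The gene counted as lower at 1 h was Eif4ebp1. The autophagy genes Map1lc3b (0.11, SE 0.08, adjusted p = 0.36), Becn1 (0.15, SE 0.06, adjusted p = 0.128) and Atg12 (-0.08, SE 0.07, adjusted p = 0.453) were not called at 4 h.

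Of 48 genes of the mTOR complexes and their upstream control, 8 were measured, and 0 were called by limma in any of the 4 comparisons, in which 2.78% (1 h), 15.9% (4 h), 3.52% (difference) and 0.145% (saline) of all probes were called. Ddit4l and Flcn, whose probe IDs carry no gene number, are not among the 8. At an unadjusted p under 0.05 the list held 0 genes at 1 h and 2 at 4 h, and the methods' t-test called 0 at both times. Their median log2 change was 0.01 at 1 h and 0.01 at 4 h. Rictor, the scaffold of mTORC2, stood at 0.09 (SE 0.07, adjusted p = 0.412) and Akt1s1, an inhibitory subunit of mTORC1, at 0.26 (SE 0.09, adjusted p = 0.0511) at 4 h. The Rag GTPase genes Rragc and Rragd, whose products work with folliculin, stood at -0.05 (SE 0.08, adjusted p = 0.71) and 0.07 (SE 0.10, adjusted p = 0.666) at 4 h.

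Of 28 mTORC1 substrates and genes of cap-dependent translation, 13 were measured. Eif4ebp1, itself a member, was the 1 lower at 1 h, where 0.908% of all probes were called lower. At 4 h 1 gene by its brightest probe, the cap-binding homologue Eif4e2, was higher (0.25, SE 0.08, adjusted p = 0.0297), where 8.81% of all probes were. This call was lost without formoterol 4 h replicates 1 (0.0728), 3 (0.0561) or 4 (0.0791) or saline 4 h replicates 1 (0.0862) or 2 (0.0588). The elongation factor gene Eef2 had 3 kept probes, of which the brightest stood at 0.17 (adjusted p = 0.309) at 4 h and the other two at 0.38 (adjusted p = 0.0178) and 0.11 (adjusted p = 0.552). The related repressor gene Eif4ebp2 stood at 0.04 (SE 0.12, adjusted p = 0.951) at 1 h and 0.23 (SE 0.12, adjusted p = 0.203) at 4 h, and Eif4e at 0.09 (SE 0.08, adjusted p = 0.669) and -0.04 (SE 0.08, adjusted p = 0.761).

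Lysosome genes were listed because folliculin acts at that organelle. Of 32, 9 were measured, with 0 called at 1 h (1 at an unadjusted p under 0.05, and 0 by the methods' t-test) and 3 higher at 4 h, where 8.81% of all probes were called higher. Sqstm1, a receptor that carries cargo into autophagosomes, rose by 0.63 on the log2 scale (SE 0.10, adjusted p = 2.43e-04). Neu1, a lysosomal sialidase (0.33, SE 0.07, adjusted p = 0.00333), and Atp6v0d1, a subunit of the proton pump (0.31, SE 0.08, adjusted p = 0.0111), rose too. The median of the list lay the other way, at -0.10 at 4 h, but 0 genes were called lower. The cathepsin gene Ctsb stood at -0.27 (SE 0.10, adjusted p = 0.0858) on the probe counted here. On its other kept probe it stood at 0.00 (adjusted p = 0.999).

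**Figure D4:**
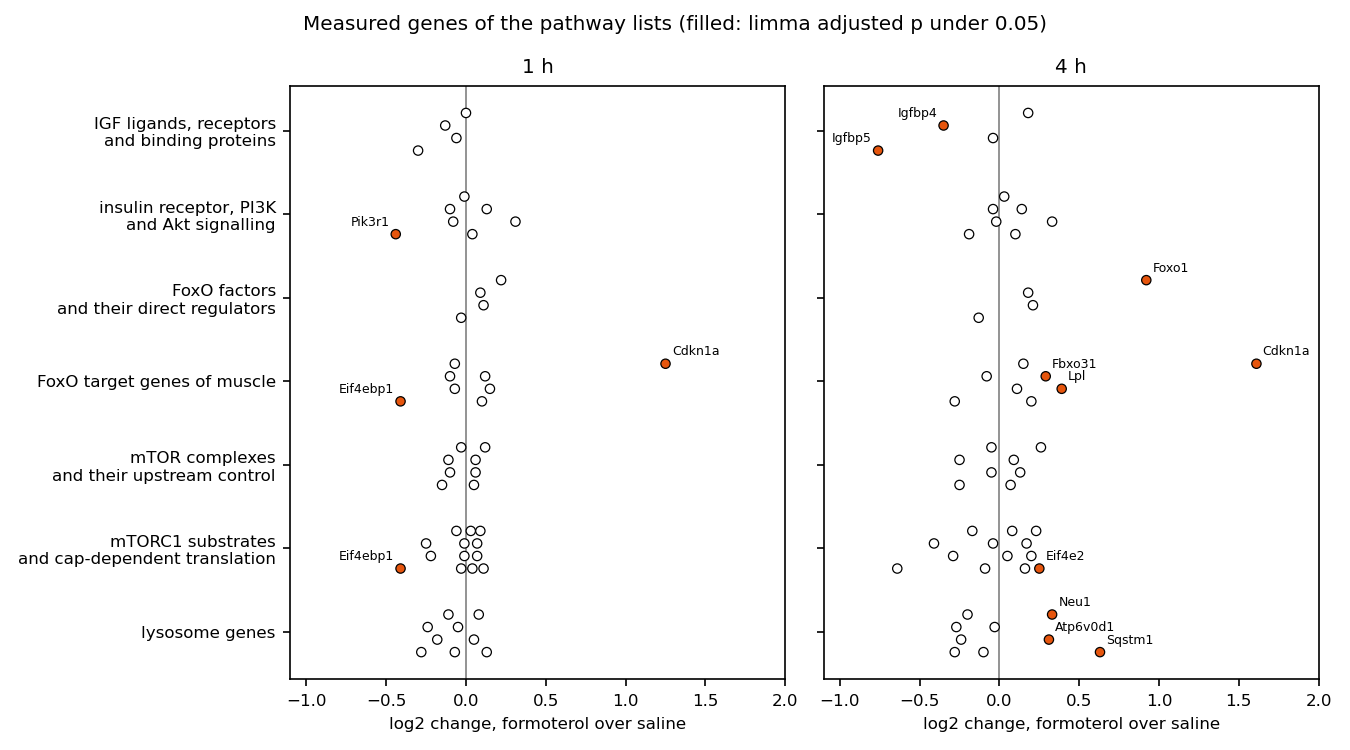
The log2 change of formoterol over saline (horizontal axis) at 1 h (left) and 4 h (right) for every measured gene of 7 pathway lists (rows), 1 point per gene, filled and named where the limma adjusted p was under 0.05. In the mTOR row 0 of 8 genes were filled at either time, and among the filled points at 4 h Cdkn1a, Foxo1 and Igfbp5 lay farthest from 0.

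The named genes whose signal most resembled that of each member over the 16 arrays are given by Pearson's r, as a description, since the arrays share the 4 groups. Flcn was most like the kinase gene Alpk2 (r = 0.937), the antioxidant gene Srxn1 (0.931) and the F-box gene Fbxo34 (0.927). Foxo1 was most like the lipid droplet gene Plin4 (0.891), the acyltransferase gene Gpat3 (0.887) and Ank3 (0.879). Igfbp5 was most like Cd200 (0.885), Rgs10 (0.883) and the secreted Wnt antagonist gene Frzb (0.879), and Igfbp4 was most like Zfp36l1 (0.884), Gdf10 (0.841) and Olfml2b (0.838). Ddit4l was most like Sbk1 (0.859), Akap9 (0.856) and H2-T23 (0.836). Eif4ebp1 reached 0.806 with Ifi205, 0.774 with Esd and 0.693 with Rab11b, and Igf1 reached no more than 0.749, with Ctsz.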

How the data were processed

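RNA of 16 muscles was hybridised to Illumina Sentrix Mouse-6 version 1 bead arrays, and the authors exported values from BeadStudio 1.5.1.3. The deposited intensity values are linear, without normalization between arrays, and the deposited detection score runs to 1 for each probe and array. The deposited ratio values, made by the authors in GeneSpring, are each intensity over the median of its array, and served to identify the Ddit4l and Flcn probes and as an alternative. Genes were named from gene numbers or RefSeq accessions inside probe IDs, which named 2591 of the 7596 kept probes. A probe was kept with a detection score of 1 on 4 or more of 16 arrays, and is called detected on an array at 0.99 or above. Intensities were scaled to a common median of kept probes, floored at percentile 1 (1215 values at the floor), and taken to log2. All 4 groups entered 1 limma fit (limma 3.58.1, R 4.3.3) with empirical Bayes moderation, 12 residual and 5.97 prior degrees of freedom, and Benjamini-Hochberg adjustment over 7596 probes, with a call at an adjusted p under 0.05. The fit was tested on simulated data first. An exact test of 4 against 4 mice cannot give a p under 0.029. The number of arrays limits the precision.

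The members, gene lists and markers were chosen with earlier results of these data known. The text names every member and each list gene called at 1 h or 4 h, and other list genes were named after their values were seen. Like genes are the 3 named genes with the highest Pearson r over 16 arrays. Promoter windows and motif shares come from RefSeq (GRCm38.p6), and 6 of the 7 members matched. Probe sequences and proteins were not used here. Alternatives covered normalization, background, floor, filter, test, array weights, slide, replicate number and each mouse left out. Tables were read with Python 3.11.15.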

Additional observations from a re-analysis of the deposited data

Results flagged for a closer look

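Within the groups, 2 of the 32 sets of 4 mice (8 probes in 4 groups) held a mouse far from the other 3 by Dixon's ratio. This ratio is the gap to the nearest mouse over the whole range, taken on log2 values, while the signals below are linear. Chance flags about 1 in 20 such sets. Igfbp5 probe 1 was low in saline 1 h replicate 3 (ratio 0.854), at 2973.7 against 3976.2 to 4179.4 in the other mice, while probe 2 was not flagged there. Flcn was high in formoterol 1 h replicate 4 (ratio 0.857), at 2227.4 against 1135.9 to 1250.8.

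The response differed between the times for 2 members. For Foxo1 the 4 h response exceeded the 1 h response by 0.94 on the log2 scale, from -0.03 to 0.92. For Eif4ebp1 it did so by 0.61, from -0.41 to 0.20. Both differences were tested in the limma fit, and the call of Eif4ebp1 was lost in 4 of the fits without 1 mouse.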

How the results depend on the processing

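No member changed direction under any alternative where it was called. The count of probes called at 1 h moved from 211 to 123 with no filter on dim probes, 6 by the methods' t-test, 494 within slide 2 and 78 within slide 3. At 4 h it moved from 1206 to 608 with no filter, 393 by the methods' t-test, 2226 with array weights, 154 within slide 2 and 546 without the 3 arrays of extreme median signal. The count for the difference of the responses moved from 267 to 123 with no filter, 443 with array weights and 148 without the 3 extreme arrays. The small count of 11 for saline over time moved to 4 with quantile normalization, 0 with normexp and quantile normalization together, 7 with the authors' ratios, 6 with an offset, 6 with trend and robust moderation, 253 with array weights, 0 and 4 with slide as a fixed or random block, 6 without the 3 extreme arrays and 17 with signal over background as a covariate. Leaving out 1 mouse gave 133 to 266, 879 to 1777, 194 to 309 and 0 to 79 in the same order. The arrays of extreme median signal were formoterol 4 h replicates 2 and 3 and saline 4 h replicate 2, and these 2 last alternatives were chosen after seeing the data.

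Eif4ebp1 at 1 h was not called with no filter (-0.41, adjusted p = 0.339), by the methods' t-test (-0.41, 0.299), with each time alone (-0.41, 0.0548) or within slides 2 (-0.45, 0.0924) and 3 (-0.38, 0.452), and stood between -0.49 and -0.35 with 1 mouse left out. Its difference was not called with no filter (0.61, 0.217), and stood at 0.55 to 0.69 with 1 mouse left out. At 4 h it was called with array weights (0.24, 0.0479) and with the signal covariate (0.27, 0.0413). Igfbp4 at 4 h was not called with no filter (-0.35, 0.268), by the methods' t-test (-0.35, 0.115), within slide 2 (-0.07, 0.899, again 1 mouse of each) or without the 3 extreme arrays (-0.23, 0.329), and stood at -0.40 to -0.28 with 1 mouse left out. The methods' t-test also lost Foxo1 (0.92, 0.0625), Igfbp5 probe 1 (-0.76, 0.151) and probe 2 (-0.91, 0.0808), and it was run on the scaled, floored values, not on the authors' ratios. Within slide 2, which held 1 mouse of each group at 4 h, probe 1 stood at -0.51 (0.461) and probe 2 at -0.69 (0.3), with the spread taken from the other groups, so these p-values say little of the change. Ddit4l moved to -0.54 within slide 2 and 0.44 within slide 3 at 1 h and to -0.77 within slide 2 at 4 h. The causes were not tested, beyond fewer mice within a slide and more probes without the filter.

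Deviations of same-numbered mice correlated at -0.25 to 0.30. These values alone do not settle whether the replicate numbers pair the mice, and the main fit took no pairing. With the replicate block, Eif4ebp1 at 1 h stood at -0.41 (adjusted p = 0.058), the saline count was 31, and no other call of a member changed. Low signal limits Foxo1 and Igf1, which lie near background.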

Other observations

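The mouse with the high Flcn signal at 1 h, formoterol replicate 4, was not set apart in the same way over other late genes. Of 573 probes, members left out, that were called higher at 4 h and not called at 1 h, this mouse held the highest of the 4 formoterol 1 h values for 29.3%, against 26.2% over all probes. The shares of replicates 1, 2 and 3 were 25.5%, 15% and 30.2%. The median of these probes over the saline 1 h mean was 0.11 on the log2 scale in replicate 4 and 0.09 to 0.10 in the others.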
